A study of Rattus norvegicus with 6 samples.

Results

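The measurements described here are the small RNA reads that were assigned to miRNA precursor families, the hairpin RNAs from which mature miRNAs are cut, rather than to the mature miRNAs themselves. The members are all rows of the small RNA table whose type is precursor, 177 of 2363 rows, and each row is an Rfam family named in its description (mir-21, let-7 and so on). The reads came from primary sertoli cells of the rat (Rattus norvegicus; testes of Sprague-Dawley pups of 5 to 10 days, used after passage), the somatic cells of the seminiferous tubule that nurse the germ cells. 3 samples were controls without the compound and 3 had been exposed for 24 h to 0.5 mM 4-nonylphenol (4-NP), a breakdown product of nonionic surfactants that acts on estrogen receptors, and no gene had been altered in either group. RNA of 18 to 30 nt was cut from a gel before the libraries were made. No label states that the 3 samples of a group came from separate animals or cultures, so the p-values measure only the spread between these samples, which may be technical.

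A miRNA gene is transcribed as a long primary transcript. The enzyme Drosha cuts a hairpin of it free in the nucleus, and Dicer then cuts away the loop in the cytoplasm, which leaves a pair of short strands named 5p and 3p after the arm they lie on. One of these usually becomes the mature miRNA in an Argonaute protein. A few hairpins take other routes: mir-451 is cut by Argonaute 2 instead of Dicer, mir-877 is a mirtron that is released by splicing, and mir-320 and mir-484 are made without Drosha.

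The hairpins below show what such a family holds beyond its mature miRNA, and were chosen because the results turn on them. They are the rat sequences of RefSeq (build GRCr8), written 5′ to 3′ in lower case, with the annotated mature miRNAs in capitals. Of the 87 families that were compared with their mature miRNAs, 80 matched a RefSeq entry, with 145 hairpins of 62 to 118 bases (median 88).
Mir21 (chr10:71902600-71902691, minus strand): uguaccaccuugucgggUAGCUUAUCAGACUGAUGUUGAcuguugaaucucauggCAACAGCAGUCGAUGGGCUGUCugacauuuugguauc
Mir214 (chr13:77121645-77121752, plus strand): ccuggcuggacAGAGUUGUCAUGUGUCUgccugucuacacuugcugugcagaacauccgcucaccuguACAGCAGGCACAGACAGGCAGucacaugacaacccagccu
Mir140 (chr19:52375293-52375391, plus strand): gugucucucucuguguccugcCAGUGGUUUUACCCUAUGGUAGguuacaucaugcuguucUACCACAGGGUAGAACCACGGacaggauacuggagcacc
Mir449a (chr2:46403910-46404000, plus strand): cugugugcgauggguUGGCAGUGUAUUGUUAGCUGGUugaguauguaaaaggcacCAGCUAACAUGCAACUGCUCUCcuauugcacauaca
Mir671 (chr4:11473194-11473274, minus strand): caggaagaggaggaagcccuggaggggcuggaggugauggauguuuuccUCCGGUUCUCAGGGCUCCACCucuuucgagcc
Mir451a (chr10:63459569-63459640, plus strand): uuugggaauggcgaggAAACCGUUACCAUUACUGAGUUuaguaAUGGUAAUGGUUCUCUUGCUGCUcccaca
Mir877 (chr20:2816284-2816368, plus strand): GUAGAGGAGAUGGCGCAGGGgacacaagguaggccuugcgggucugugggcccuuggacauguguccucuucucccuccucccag
Mir194-2 (chr1:212994024-212994108, plus strand): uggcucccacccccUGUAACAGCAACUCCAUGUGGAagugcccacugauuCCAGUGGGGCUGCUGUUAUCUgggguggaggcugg
The shortest hairpin was longer than the upper limit of 30 nt of the gel band, so a read of a precursor family here is a fragment of that size and not a whole hairpin. The files do not give the position of these reads in the hairpin. How a read was given to a precursor family and not to a mature miRNA is not given in the sources used here.

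The libraries held 20023200 to 23426742 mature miRNA reads each, and all levels below are reads per 1000000 mature miRNA reads of the same sample (RPM). Values of the 3 control samples come first, in the order of their replicate numbers, and those of the 3 treated samples second. At this depth a count of 0 allows up to 3 reads, or 0.128 to 0.150 RPM (counting error only). The sertoli cell markers miR-202 and miR-140 were both present as mature miRNAs, together at 1382 to 1897 RPM without and 1213 to 1404 RPM with 4-NP. Of the mature markers of other cell types, those of erythroid cells (miR-451, miR-144, miR-486; 3 of 3 detected, nearly all of it miR-451) went from 11 to 40.7 RPM without 4-NP up to 59.3 to 631 RPM with it, while those of endothelium (miR-126) went from 6325 to 7615 down to 3234 to 3805 and those of epithelium (miR-200, miR-141, miR-429; 3 of 3 detected) from 10.7 to 13.0 down to 6.34 to 7.05. Germ cell markers (5 of 5 detected) summed to 7122 to 7693 against 10972 to 12083 RPM, but nearly all of this was miR-34. In means, miR-34 stood at 7163 and 11418 RPM and carried the rise, while miR-449 stood at 124 and 106 RPM. The rest of the list, miR-871, miR-880 and miR-883, was together lower in each treated sample than in each control. The markers of smooth muscle or myoid cells (miR-143, miR-145) were the highest of all the lists. They stood at 120596 to 136273 RPM without and 88389 to 96697 RPM with 4-NP, without overlap. Markers of myeloid cells (miR-223, miR-142), striated muscle (miR-1, miR-133, miR-206), nervous tissue (miR-124, miR-9) and liver (miR-122) overlapped between the groups. None of the listed markers was at 0 in all 6 samples. In such bulk samples, fewer cells of a type and less RNA per cell cannot be told apart.

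Precursor families took 7.77% to 11.1% of all counted reads. Of the 177 families, 95 had reads in all 6 samples, 91 reached a mean of 10 counts over the 6 samples and 62 a mean of 100. The 86 families below 10 counts included 10 plant families, which are written MIR in capitals and of which the highest had a mean count of 2.33.

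The reads were concentrated in very few families. mir-21, whose mature form is a growth-associated miRNA abundant in cultured cells, took 68.7% to 75.4% of all precursor reads, and mir-143, of smooth muscle and myoid cells, took 9.15% to 14.8%. The sum of all precursor reads was 11.6, 13.1 and 13.2 per 100 mature reads without 4-NP and 12.3, 10.8 and 9.12 with it. The treated samples thus lay within and below the range of the controls. In means this was 126434 ± 8989 (SD, n = 3) against 107355 ± 16058 (SD, n = 3) RPM, a difference that did not pass an exact permutation test (two-sided, p = 0.2, where 0.1 is the smallest p that 3 against 3 samples allow). Without mir-21 the sums were 34202 ± 1561 in the controls and 30038 ± 1450 in the treated samples (SD, n = 3), and the groups did not overlap (exact permutation p = 0.1). Without both mir-21 and mir-143 they were 18230 ± 898 and 19156 ± 888 (exact permutation p = 0.3), with overlap between the groups.

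**Figure D1:**
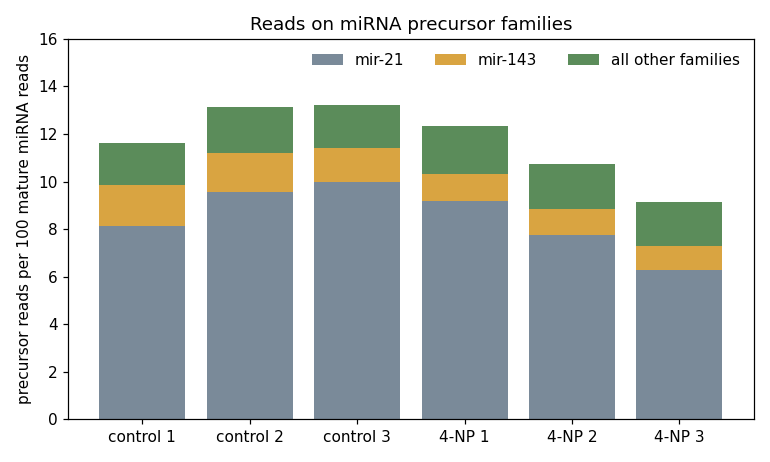
Stacked bars give the precursor reads per 100 mature miRNA reads in each of the 6 samples (linear axis from 0), split into mir-21, mir-143 and all other families. mir-21 makes up most of every bar, and the bars run from 9.12 in 4-NP replicate 3 to 13.2 in control replicate 3.

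The 10 most abundant families were mir-21, mir-143, mir-199, mir-27, mir-30, mir-26, mir-23, mir-24, mir-10 and mir-181. Of these, only mir-143 passed the test. It had 17176, 16148 and 14591 RPM without and 11281, 11221 and 10145 with 4-NP. All treated samples lay below all control samples, a log2 fold change of -0.55 (SE 0.09, adjusted p = 0.00766 by edgeR's quasi-likelihood test). mir-21 had 81304, 95753 and 99639 RPM without and 91926, 77327 and 62698 with 4-NP, with overlap (log2 fold change -0.25, SE 0.15, adjusted p = 0.258 by the same edgeR test). mir-24 was at 776 ± 43.7 in the controls and 1333 ± 670 after 4-NP (SD, n = 3), where 1 treated sample, replicate 3, held 45644 reads against 24715 and 15987 in the other two. The remaining 7 families had log2 fold changes between -0.32 (mir-23) and 0.33 (mir-26).

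Of 93 families with enough reads to be tested, 9 rose and 14 fell with 4-NP at an adjusted p under 0.05 in edgeR's quasi-likelihood test, fitted over all 1285 small RNAs with enough reads. This was 9.68% and 15.1% of the families, against a background of 12.3% higher and 9.42% lower among all 1285. When the libraries were scaled to the other small RNAs in place of the mature miRNAs, the split was 4 higher and 28 lower. Of the 9 rises, this scaling ended the calls of mir-182, mir-451, mir-192/215, mir-7 and mir-155 (adjusted p = 0.0791, 0.0545, 0.0729, 0.178 and 0.390 by edgeR). With the fold limits of 2 and 0.5 and an unadjusted p under 0.05, 8 families were higher and 16 lower, where the background was 12.8% and 9.03%. The 2 groups did not overlap in 44 of the 93 families (47.3%), 21 higher and 23 lower, beside 44.8% of all small RNAs tested. The median log2 fold change of the 93 families was 0.01, as was that of the 549 mature miRNAs tested, while the median over all 1285 small RNAs was 0.27. Leaving out control replicate 1 or control replicate 2 left 14 families called.

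**Figure D2:**
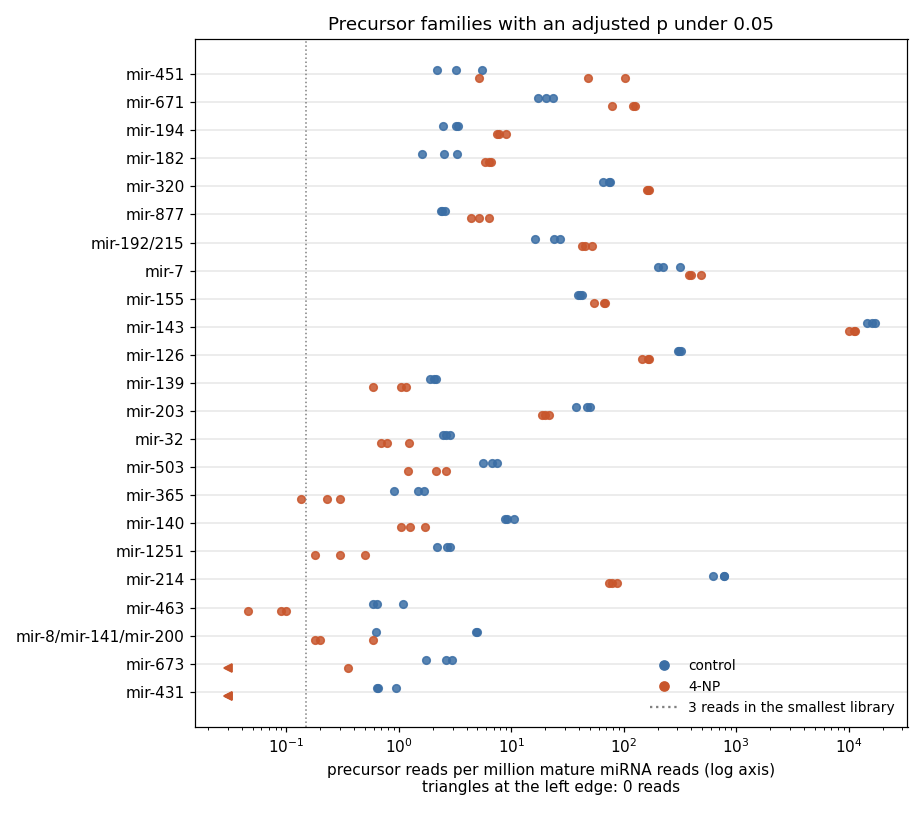
Each row is 1 of the 23 families that passed the test, ordered by log2 fold change, and each point is 1 sample, in RPM of precursor reads on a log axis (blue, control; orange, 4-NP). The groups are apart in every row but mir-451, and the families at the bottom of the plot fall to a handful of reads or to 0 in the treated samples.

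The clearest fall was in mir-214, whose miRNA is typical of mesenchymal cells. It had 14505, 17820 and 17456 reads without and 1632, 1579 and 1911 with 4-NP. In RPM this was 725 ± 91.5 against 80.0 ± 6.83 (SD, n = 3), so each treated sample lay far below each control. The log2 fold change was -3.18 (SE 0.16, adjusted p = 0.000248 by edgeR). The mature miR-214-3p, which occupies the second run of capitals in the Mir214 hairpin above, fell less, from 13039, 16413 and 17112 reads to 8465, 8036 and 9824 (log2 fold change -0.72, SE 0.16, adjusted p = 0.0231 by edgeR).

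mir-140, a family of cartilage that is used here as a sertoli cell marker, showed the same kind of fall at a lower level. It had 216, 242 and 195 reads without and 28, 34 and 23 with 4-NP. The groups were far apart (log2 fold change -2.82, SE 0.24, adjusted p = 0.000615 by edgeR). The mature miR-140-5p had 15981, 15129 and 12361 reads without and 13029, 10391 and 10928 with 4-NP, and its log2 fold change of -0.24 (SE 0.14) did not pass the test (adjusted p = 0.264 by edgeR).

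Several of the families with the largest fitted falls rested on few reads. mir-431, of the imprinted Dlk1-Dio3 region, had 15, 15 and 21 control reads and 0 in all 3 treated samples, which is at least 5.28-fold lower against a floor of 3 reads per library (adjusted p = 0.014 by edgeR). mir-673 had 61, 68 and 39 reads without and 0, 7 and 0 with 4-NP (log2 fold change -4.38, SE 0.97, adjusted p = 0.0224 by edgeR), and with 4-NP replicate 2 left out it was at least 17.8-fold lower. mir-463, of an X-linked cluster expressed in testis, had 53 reads over the 3 controls and 5 over the 3 treated samples, a ratio of 9.87 (95% exact interval 3.97 to 31.6, counting error only; adjusted p = 0.0145 by edgeR).

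These calls were not equally firm. mir-431 no longer passed without control replicate 1, 2 or 3 (adjusted p = 0.0546, 0.0546 and 0.0634 by edgeR). mir-673 no longer passed when any of the controls or treated replicate 3 was left out (adjusted p = 0.0807, 0.0909, 0.0582 and 0.0584 by edgeR), and mir-463 did not without control replicate 2 (adjusted p = 0.0677 by edgeR). mir-365 had 21, 39 and 33 reads against 3, 6 and 5 (log2 fold change -2.59, SE 0.48, adjusted p = 0.0125 by edgeR, and 0.0597 without control replicate 2).

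The epithelial family mir-8/mir-141/mir-200 had 117 and 112 reads in control replicates 1 and 2 but only 14 in replicate 3, and 4, 4 and 13 after 4-NP. In RPM, control replicate 3 (0.628) lay just above the highest treated sample (0.594). The log2 fold change was -3.40 (SE 0.89, adjusted p = 0.0386 by edgeR). It did not pass when control replicate 1 or 2 or any treated sample was left out (adjusted p = 0.115 and 0.115, then 0.115, 0.0979 and 0.0696 by edgeR). The mature epithelial markers were also lower, as given above, and their part in the result was not tested.

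mir-126, an endothelial family, had 312, 323 and 301 RPM without and 146, 164 and 169 with 4-NP, and the groups were far apart. It fell by 0.97 on the log2 scale (SE 0.13, adjusted p = 0.00382 by edgeR). Its mature miR-126a-3p fell by 1.00 (SE 0.12, adjusted p = 0.00197 by edgeR). It is the one endothelial marker of the list, and the part of endothelial cells in its fall was not tested. mir-1251, whose description matched no mature miRNA of the table, had 51, 66 and 60 reads without and 4, 6 and 11 with 4-NP (log2 fold change -2.95, SE 0.38, adjusted p = 0.00318 by edgeR).

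The remaining falls lay outside the rule for named families and are named after their values were seen. They were in mir-503 (-1.74 on the log2 scale), mir-32 (-1.56), mir-203 (-1.16) and mir-139 (-1.13), with adjusted p-values of 0.0117, 0.011, 0.00597 and 0.0424 by edgeR. mir-503, which belongs to the cell cycle related mir-16 group, had 159, 129 and 166 reads against 47, 24 and 57, and its mature miR-503-5p fell by 2.39 on the log2 scale. The call of mir-139 held only without 4-NP replicate 2 (adjusted p = 0.0499 by edgeR), and leaving out any other sample gave 0.0608 to 0.112.

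Among the families that rose, mir-671 had the smallest adjusted p. It had 408, 470 and 525 reads without and 2685, 1559 and 2774 with 4-NP. This was 20.4 ± 3.07 against 109 ± 26.8 RPM (SD, n = 3), with every treated sample more than 3-fold above the highest control. The log2 fold change was 2.41 (SE 0.25, adjusted p = 0.00134 by edgeR). The only mature row of this family, miR-671, had 6, 4 and 1 reads without and 33, 19 and 38 with 4-NP, so nearly all reads of this hairpin were in the precursor row. The hairpin above has 1 annotated mature arm, so reads of its other arm have no mature row to enter.

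mir-320, made without Drosha, had 64.7, 74.1 and 75.4 RPM without and 166, 161 and 163 with 4-NP. The treated samples were tightly grouped above the controls (log2 fold change 1.19, SE 0.14, adjusted p = 0.0021 by edgeR). The mirtron mir-877 had 57, 55 and 57 reads without and 139, 88 and 112 with 4-NP (log2 fold change 1.10, SE 0.20, adjusted p = 0.0127 by edgeR, and 0.0516 and 0.0517 without control replicate 1 or 2). In its hairpin above, the mature miRNA starts at the first base, which is the 5′ end of the intron.

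mir-451, the Argonaute 2 product of red blood cells, had 51, 75 and 123 reads without and 115, 2049 and 1062 with 4-NP. It was the 1 called family whose groups overlapped, since treated replicate 1 lay at the level of the controls. The log2 fold change was 3.83 (SE 1.03, adjusted p = 0.0424 by edgeR). It did not pass without any 1 of the 3 controls (adjusted p = 0.144, 0.139 and 0.0962 by edgeR) nor without 4-NP replicate 2 or 3 (0.0850 and 0.0917 by edgeR). Mature miR-451-5p varied in the same samples, with 252, 247 and 895 reads without and 1300, 6107 and 13743 with 4-NP. The other erythroid markers, miR-144 and miR-486, summed to 0.256 to 0.736 RPM without and 0.587 to 4.54 RPM with 4-NP, with overlap. The liver marker miR-122 stood at 0.0427 to 0.538 RPM without and 0.271 to 21.7 RPM with 4-NP, and its highest sample was treated replicate 2, as it was for mir-451. The part of blood or other cells in this result was not tested.

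With mir-484 (3.0 ± 0.50 against 2.31 ± 0.53 RPM, SD, n = 3, adjusted p = 0.326 by edgeR), these made up the tested families of a list that need no Drosha or no Dicer. Of its 5 members 4 were tested, 3 rose and 1 did not pass, with a median log2 fold change of 1.15, where 12.3% of all small RNAs tested were higher and 9.42% lower. Of the 3, mir-320 passed in all 16 alternatives, mir-877 in 13 and mir-451 in 8.

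mir-194, a family of gut and liver epithelium that p53 induces, had 76, 57 and 75 reads without and 165, 157 and 197 with 4-NP (log2 fold change 1.42, SE 0.20, adjusted p = 0.00487 by edgeR). Its neighbour on the same primary transcripts, mir-192/215, was at 22.4 ± 5.50 RPM in the controls and 46.6 ± 5.00 after 4-NP (SD, n = 3; log2 fold change 1.06, adjusted p = 0.0201 by edgeR). mir-182, of a sensory cell cluster with mir-96 and mir-183, had 59, 37 and 73 reads against 139, 117 and 145 (log2 fold change 1.34, SE 0.28, adjusted p = 0.0195 by edgeR). That call was lost without control replicate 1, 4-NP replicate 1 or 4-NP replicate 3 (adjusted p = 0.0718, 0.0511 and 0.0600 by edgeR).

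mir-7 (0.78 on the log2 scale, adjusted p = 0.0457 by edgeR) and mir-155 (0.63, adjusted p = 0.0345 by edgeR), an immune-cell family, also rose. Like mir-192/215 they lay outside the rule for named families. The mature miR-155-5p had 5954 and 5638 reads in control replicates 2 and 3 but 2 in replicate 1, and 10569 and 12385 in 4-NP replicates 1 and 3 but 1 in replicate 2, while the precursor family had 913 to 1503 reads in every sample. mir-155 passed without 4-NP replicate 2 (adjusted p = 0.035 by edgeR) but not without any other sample (0.0845 to 0.114). mir-7 passed without control replicate 2 (0.0261 by edgeR) but not without any other sample (0.0652 to 0.142), and mir-192/215 was lost without control replicate 3 or 4-NP replicate 3 (0.0618 and 0.0673 by edgeR).

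The most abundant mature miRNA of the family was called in the same direction for 7 of the 9 families that rose and for 8 of the 13 families that fell and had a mature row. It was called in the opposite direction for 0 of them. Among all 549 mature miRNAs tested, 8.38% were higher and 11.5% lower.

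The markers of other cells and of sertoli cells were carried by 17 families, of which 14 were tested, with 1 higher (mir-451), 4 lower (mir-143, mir-126, mir-140 and mir-8/mir-141/mir-200) and 9 not called, and a median log2 fold change of -0.29. mir-202, the sertoli cell family, had 4456, 4261 and 3028 reads without and 2677, 2244 and 2410 with 4-NP. All treated samples lay below the controls, but the family missed the threshold (log2 fold change -0.57, SE 0.18, adjusted p = 0.0641 by edgeR). It passed without control replicate 3, the lowest control (0.0409 by edgeR), and when scaled by TMM factors of the mature miRNAs (0.0491 by edgeR).

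mir-223, of myeloid cells, had 34, 23 and 43 reads without and 26, 66 and 132 with 4-NP, with overlap. It did not pass (adjusted p = 0.174 by edgeR, and 0.0451 without 4-NP replicate 1, which lay within the control range). The muscle families mir-1 (log2 fold change 0.41) and mir-133 (0.05) and the neural families mir-124 (-0.03) and mir-9/mir-79 (0.02) did not pass either. None of these 4 families had more than 238 reads in a sample.

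For the other lists, the shares over all small RNAs tested are again 12.3% higher and 9.42% lower. Of 10 families of fibroblasts and mesenchyme, 0 were higher, 2 lower (mir-143 and mir-214) and 8 not called (median log2 fold change -0.14). For the polycistrons of mir-17, mir-19 and mir-92, which drive proliferation, 3 families were tested and 0 called by edgeR or DESeq2, with 0 at an unadjusted p under 0.05 in edgeR (median 0.30). Of 13 families on the list used for the Dlk1-Dio3 region, 3 had enough reads and 1 was called, mir-431 (median -0.65, also with mir-431 at its bound). This list may not be complete, and mir-673 was not on it. The let-7 family, a brake on growth genes, had 8450 to 12739 reads in the controls and 7698 to 10158 after 4-NP (log2 fold change -0.11), and mir-10 stood at 0.16.

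For 87 families with a mean of 10 or more counts, the precursor reads could be set against the mature miRNAs that the description names, 275 mature rows in all. Mature rows with another number whose own description names the family were left out. For example, mir-214 was set against 2 of 3 such rows and mir-10 against 4 of 16. The median family had 12 precursor reads per 100 mature reads, with quartiles of 5.69 and 27.7 and a range of 0.0273 to 8338. Precursor and mature counts rose together across families (r = 0.80 on the log2 scale over 87 families, which share libraries and depth). 45 families lay between 10 and 100 per 100, 32 between 1 and 10, and 7 under 1.

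Families stood apart at both ends. 3 families had more precursor than mature reads, namely mir-671 (8338 per 100), mir-208 (770 per 100) and mir-203 (216 per 100). For mir-208 this rested on very few reads, a mean of 12.8 precursor and 1.67 mature reads per sample. At the other end, mir-34 had 0.0273 and mir-22 0.0972 precursor reads per 100 mature reads. mir-21 (13.5) and mir-143 (12.6), the most abundant families, lay close to the median.

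**Figure D3:**
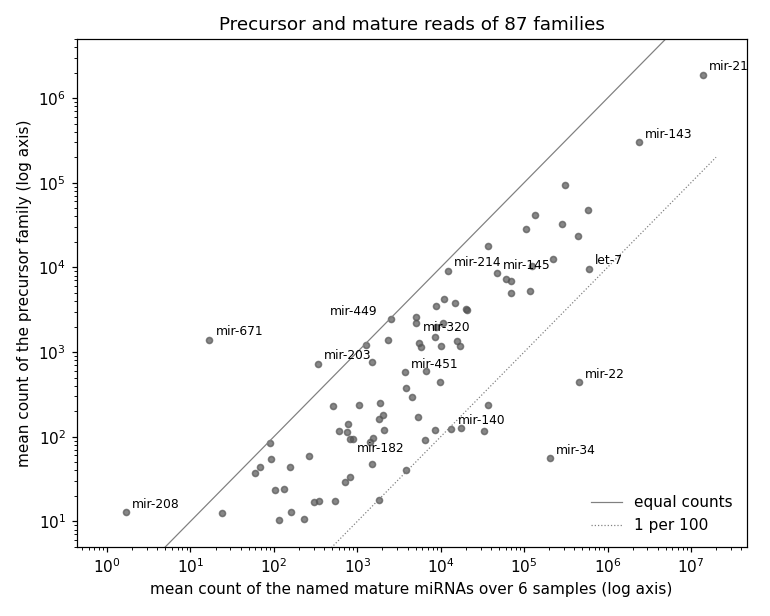
Each point is 1 of 87 families, with the mean count of its named mature miRNAs over the 6 samples on the x axis and the mean count of the precursor family on the y axis (both log axes; solid line, equal counts; dotted line, 1 precursor read per 100 mature). Most points lie between the lines, with mir-671, mir-208 and mir-203 above them and mir-34 and mir-22 far below.

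Between the groups, the log2 ratio of precursor to mature reads did not overlap in 31 of the 87 families (35.6%), 9 higher and 22 lower with 4-NP. The same was true for 31.2% of 157 ratios between the 5p and the 3p arm of 1 miRNA, a background measured in the same way. The median difference was -0.15. In 17 families the ratio was lower by more than 1 log2 unit and in 0 families it was higher by as much, and in 11 of the 17 the groups did not overlap. These 17 were 19.5% of the families, beside 15.3% of the arm ratios (24 of 157) that differed by more than 1 log2 unit in either direction. With 3 against 3 samples the exact permutation test cannot go below 0.1 for any family, and all 31 stood at that value.

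**Figure D4:**
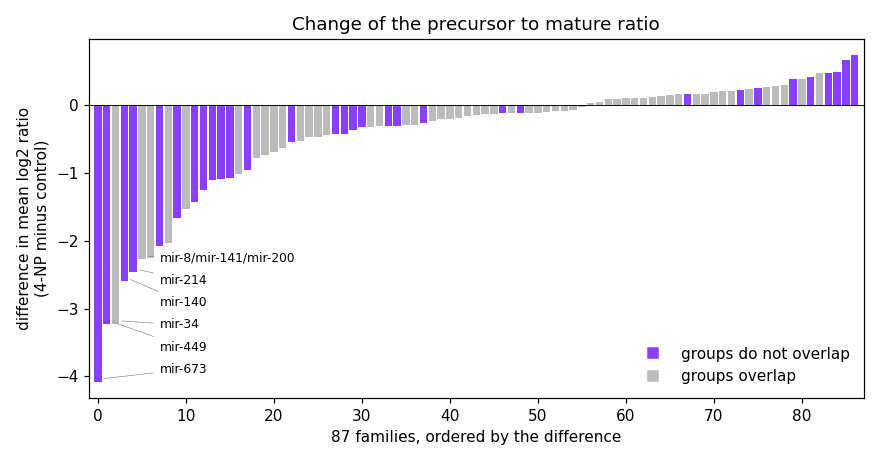
Bars give the difference in mean log2 ratio of precursor to mature reads (4-NP minus control) for 87 families, in order, with purple bars where the 3 treated and the 3 control samples do not overlap and grey bars where they do. The long bars are all on the falling side, which reaches -4.08 (mir-673), whereas the highest rise is 0.74 (mir-28).

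In mir-214 the ratio was lower with 4-NP, with almost no spread between samples. It had 107 precursor reads per 100 mature reads in the controls and 19.4 after 4-NP, a difference of -2.46 ± 0.04 (SE) in log2. For mir-140 the numbers were 1.46 and 0.240 per 100, a difference of -2.59 ± 0.22 (SE). In both, all 3 treated samples were below all controls (exact permutation p = 0.1, the smallest possible). The mature reads of mir-214 were nearly all miR-214-3p (99.8%), while miR-214-5p had 10 to 55 reads per sample. The position of the precursor reads in the hairpin is not given, so reads of the 5p arm may be among them.

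mir-449, a family of ciliated and germ cells, was among the few with about as many precursor as mature reads. It had 4748, 4550 and 3460 precursor reads without and 1053, 821 and 52 with 4-NP, or 149 per 100 mature reads against 28.5. The treated samples lay below the controls, and treated replicate 3 lay 18.5-fold below the mean of the other two treated samples. The ratio difference was -3.22 ± 1.31 (SE). The fitted log2 fold change of the precursor was -2.61 (adjusted p = 0.0971 by edgeR). Without 4-NP replicate 3, a sample picked after its count was seen, it was -2.06. The mature miR-449a-5p stood at -0.23 (adjusted p = 0.337 by edgeR).

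The mature miR-449a-5p shares its seed, bases 2 to 8 and given in capitals, with miR-34a-5p. They are shown because both precursor families held treated samples with very few reads.
rno-miR-449a-5p (GRCr8, plus strand): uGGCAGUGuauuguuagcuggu
rno-miR-34a-5p (GRCr8, plus strand): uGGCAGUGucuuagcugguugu
The mir-34 family, induced by p53, had 99, 80 and 55 precursor reads without and 5, 92 and 3 with 4-NP. Treated replicates 1 and 3 were far below the controls and treated replicate 2 was among them (log2 fold change -1.05, SE 1.13, adjusted p = 0.534 by edgeR). Without 4-NP replicate 2, a sample picked after its count was seen, the log2 fold change was -4.18. The mature miR-34a-5p rose by 0.67 on the log2 scale (adjusted p = 0.00196 by edgeR). The higher sum of mature germ cell markers with 4-NP, given above, was nearly all this miR-34, and the other markers of that list did not rise. Within miR-34, miR-34a-5p made up 99.4% of the reads. The far smaller miR-34b and miR-34c rows were also higher in each treated sample than in each control. For example, miR-34c-5p had 84, 166 and 168 reads without and 299, 283 and 269 with 4-NP. The part of germ cells in these results was not tested.

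Among the families without overlap, the other 2 of the 5 lowest differences of the ratio rested on low counts. mir-673 went from 5.56 to 0.580 per 100 mature reads (difference -4.08 ± 1.69, SE) and mir-365 from 1.43 to 0.309 (difference -2.08 ± 0.54, SE). mir-182 and mir-96 were of another kind, chosen after their values were seen. Their precursor reads did not fall, but their mature miRNAs rose further. For mir-182 the mature miR-182 rose by 2.47 on the log2 scale (240, 288 and 273 reads against 1292, 1238 and 1625), and the ratio differed by -1.08 ± 0.34 (SE). For mir-96 the ratio differed by -1.10 ± 0.23 (SE).

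**Figure D5:**
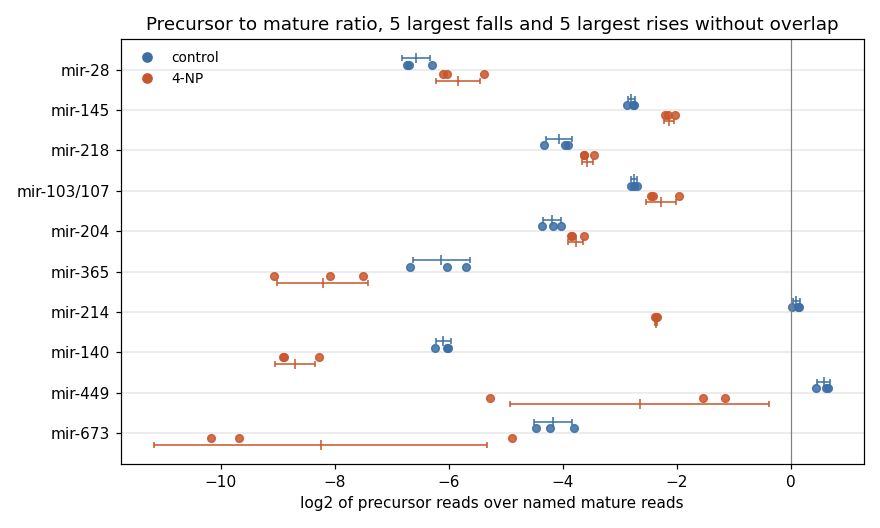
Points give the log2 ratio of precursor to named mature reads in each sample for 10 families without overlap, the 5 that rose most and the 5 that fell most (blue, control; orange, 4-NP), with mean and SD as ticks and bars. The mir-214 samples form 2 tight groups, at 0.10 and -2.36 on average, while the treated samples of mir-449 and mir-673 are spread over several log2 units.

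Positive differences of the ratio were smaller. Among the families without overlap they were largest in mir-28 (0.74 ± 0.27, SE), mir-145 (0.66 ± 0.06), mir-218 (0.49 ± 0.15), mir-103/107 (0.48 ± 0.16) and mir-204 (0.41 ± 0.12). For mir-145, a smooth muscle family, this was 14.3 precursor reads per 100 mature reads in the controls and 22.6 after 4-NP. Its precursor reads stood at 340 ± 38.1 and 428 ± 53.6 RPM (SD, n = 3) and overlapped. mir-218 and mir-204 precursor reads also overlapped between the groups, at log2 fold changes of 0.05 and -0.29, and those of mir-28 and mir-103/107 did not overlap, at 0.82 and 0.32 (adjusted p = 0.0882 and 0.18 by edgeR). The ratios of mir-28 and mir-204 took only part of the mature rows of the family, 2 of 5 and 2 of 3.

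Other named families had smaller differences of the ratio. mir-126 had 4.51 and 4.62 precursor reads per 100 mature reads in the controls and after 4-NP, with a difference of 0.04 ± 0.09 (SE). mir-143 had 12.9 and 12.2 (difference -0.08 ± 0.07, SE). mir-194 had 5.10 and 6.11 (0.24 ± 0.16, SE), and mir-202 had 16.6 and 15.3 (-0.12 ± 0.04, SE, without overlap). For mir-320 the mature miR-320-3p rose by 1.56 on the log2 scale and the ratio went from 59.8 to 46.6 per 100 (-0.36 ± 0.04, SE, without overlap).

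The RefSeq hairpins also give which families lie together. Only the 80 families that matched a RefSeq entry could enter this search. Families without one, such as mir-199 and mir-15, could not be paired with any neighbour. Within 10000 bases on 1 strand, 17 of the families formed 10 clusters, with 13 pairs of families, and neighbours often share a primary transcript. Of the 13 pairs, 4 had a ratio between their precursor reads that did not overlap between the groups (exact permutation p = 0.1 each, the smallest possible, unadjusted over the 13), a share near the 31.2% of arm ratios without overlap. In mir-143 and mir-145, which span 1471 bases and have 1 hairpin each, mir-143 fell and mir-145 stood at 0.33, and the log2 ratio of mir-143 to mir-145 differed by -0.88 ± 0.08 (SE). In mir-182 and mir-96 it differed by 0.81 ± 0.20 (SE). The others were mir-23 against mir-27 (-0.56 ± 0.18, SE) and mir-23 against mir-24 (-1.01 ± 0.59, SE), where each family has 2 hairpins in 2 clusters. For mir-192/215 and mir-194 the ratio differed by -0.34 ± 0.32 (SE) and overlapped (exact permutation p = 0.4), as it did for the 3 pairs of mir-17, mir-19 and mir-92 (exact permutation p = 0.7 to 1).

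Precursor rows also held single samples far from the rest of their group. In 9 of the 90 tested families of 10 or more counts (10%), at least 1 sample lay more than 4-fold from the mean of the other 2. The same was true of 7.43% of 538 tested mature miRNAs. mir-598, with 53, 1 and 5 reads in the controls, was not tested and is not in this count. The farthest was mir-872, with 279 and 259 reads in treated replicates 1 and 2 and 5 in replicate 3, or 50.9-fold below the other two. mir-22 had 187, 618 and 107 reads in the treated samples and 532 to 632 in the controls. mir-451 in treated replicate 1 (14.5-fold below) and mir-8/mir-141/mir-200 in control replicate 3 (7.60-fold below) have been given above.

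Of the families of 10 or more counts, 4 had no mature miRNA of their name in the table. lin-4, the first miRNA family described in worms and the one to which the mammalian mir-125 hairpins belong in Rfam, had 3145, 4990 and 4658 reads without and 4589, 3132 and 3471 with 4-NP, with overlap (log2 fold change -0.10, SE 0.23, adjusted p = 0.788 by edgeR). mir-1937 had 161, 227 and 87 reads against 287, 167 and 279, also with overlap (log2 fold change 0.72, SE 0.37, adjusted p = 0.203 by edgeR). mir-1251 has been given above, and the remaining one was mir-689.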

How the data were processed

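Per the labels and the methods of the study, small RNA of 18 to 30 nt was sequenced with molecular identifiers, and the deposited table holds read counts per small RNA, made by the authors. HISAT2 and DESeq2 stand in the submitters' processing notes, with no role. The rule that assigned reads to classes is not given in the sources used here. Columns tied to molecular identifiers were not used. Members, lists and tests were chosen with earlier results of these data known.

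Counts were fitted with edgeR 4.0.16 (R 4.3.3; quasi-likelihood, filterByExpr defaults, Benjamini-Hochberg over 1285 rows, checked on simulated data) with the sum of mature counts as library size. 4 totals (exon, intron, intergenic, repeat) were left out. Ratios took 0.5 added to each count, and mature rows were matched by the number in the description. Named families were the 10 most abundant, the 5 largest called rises and falls without overlap, the 5 largest rises and falls of the ratio without overlap, marker families and the 3 largest without a mature row. Hairpins, clusters and far samples were described after the values were seen. Replicates differed beyond sampling noise. Equal replicate numbers did not pair samples (correlation of deviations -0.17, -0.16 and 0.09). Alternatives used other scalings and filters, DESeq2 1.42.0, limma 3.58.1, a replicate block and each sample left out.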

Additional observations from a re-analysis of the deposited data

How the results depend on the processing

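Of the 23 calls, 10 passed in all 16 alternatives (mir-194, mir-214, mir-32, mir-140, mir-143, mir-203, mir-126, mir-320, mir-503 and mir-671). With scaling to the other small RNAs the median log2 fold change of the families was -0.43 in place of 0.01, and 32 families were called, 4 higher and 28 lower. Under that scaling 11 named families changed sign, none of them called. Leaving out 1 sample gave 14 to 22 calls (14 without control replicate 1 or 2) and medians from -0.19 (without 4-NP replicate 1) to 0.047. The number of families whose ratio did not overlap was 31, and 37 to 45 with 1 sample left out, where fewer samples make overlap less likely. The difference in summed precursor reads ranged from -27063 to -11007 RPM with 1 sample left out, and was -19079 with all. With the replicate number as a block 12 families were called, 4 higher and 8 lower, all among the 23, and the summed difference stayed at -19079. The numbers are not shown to pair the samples, and only replicate 3 of each group correlated best with its own number. mir-449 passed in DESeq2 (adjusted p = 0.00612). No filter on low counts gave 20 calls, at least 10 reads in every sample 18, and DESeq2 25. Of the values of named families under these alternatives, 584 kept their side of the threshold, 14 gained and 35 lost a call. Depth limits the families under 10 counts, and the 3 samples per group limit every ratio.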
